A study of Mus musculus with 10 samples.

Results

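Complement and coagulation factors are blood proteins made largely by hepatocytes, and their transcripts were followed here in regenerating mouse liver. The set holds 34 genes given as a list of names, drawn up with earlier results of these data known, and each had a row in both deposited liver tables, of 55487 gene identifiers. All 34 passed the filter on low counts in both experiments. Every group had been through partial hepatectomy (PHx), a surgery that takes out the larger share of the organ and leaves a remnant to regrow. Per the labels, all animals were male C57BL/6J mice 8 weeks old.

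In the diet experiment, 3 livers came from mice given a high-fat diet (HFD) for 7 days and 3 from mice kept on regular chow for the same time, and tissue was taken 40 hours after PHx. In the inhibitor experiment, 4 libraries came from mice given SSO at 40 mg/kg and 4 from mice given solvent (vehicle), each 1 day before PHx, and tissue was taken 48 hours after it. The labels do not spell out SSO, which commonly stands for sulfosuccinimidyl oleate, a blocker of fatty acid uptake through CD36. They give 8 mice per group for the inhibitor experiment and do not say how these became 4 libraries, so each p-value there is set against the spread of these libraries alone. The series' title asks how lipid influx bears on liver regeneration.

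Coagulation factors circulate as inactive precursors that cleave each other in turn until thrombin turns fibrinogen into a clot. Inhibitors and plasmin limit the clot and dissolve it. Complement is a parallel cascade in which pattern-binding lectins or antibodies start the cleavage of C4 and C2, and the terminal components C5b to C9 assemble into a membrane pore. Hepatocytes are the chief source of most of these proteins, and the factors HNF1, HNF4 and C/EBP are known to drive many of their genes.

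The 6 diet libraries held between 31.9 and 39.9 M counts each, and the 8 inhibitor libraries between 25.2 and 30.4 M. The 34 genes took 8.4% to 9.2% of the counts in HFD livers and 6.31% to 8.91% in chow livers, against 7.54% to 9.23% in SSO and 8.25% to 11.4% in vehicle libraries. Mitochondrially encoded transcripts took 15.2% to 17.6% of the counts in SSO libraries and 4.99%, 22.5%, 11.5% and 9.15% in vehicle 1 to 4. Xist, the transcript of the inactive X chromosome, stood at 1580 to 1770 CPM (counts per M counts, scaled between libraries) in SSO and 698 to 1610 CPM in vehicle libraries. The Y-linked genes Ddx3y and Kdm5d had 0 counts there, so these libraries go against the label "male", while the diet experiment had Ddx3y at 55 to 76.3 CPM. Hepatocyte marker genes outside the set summed to 21000 to 24400 CPM in HFD and 23500 to 30100 CPM in chow livers, so the labelled tissue carried its defining transcripts.

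**Figure D1:**
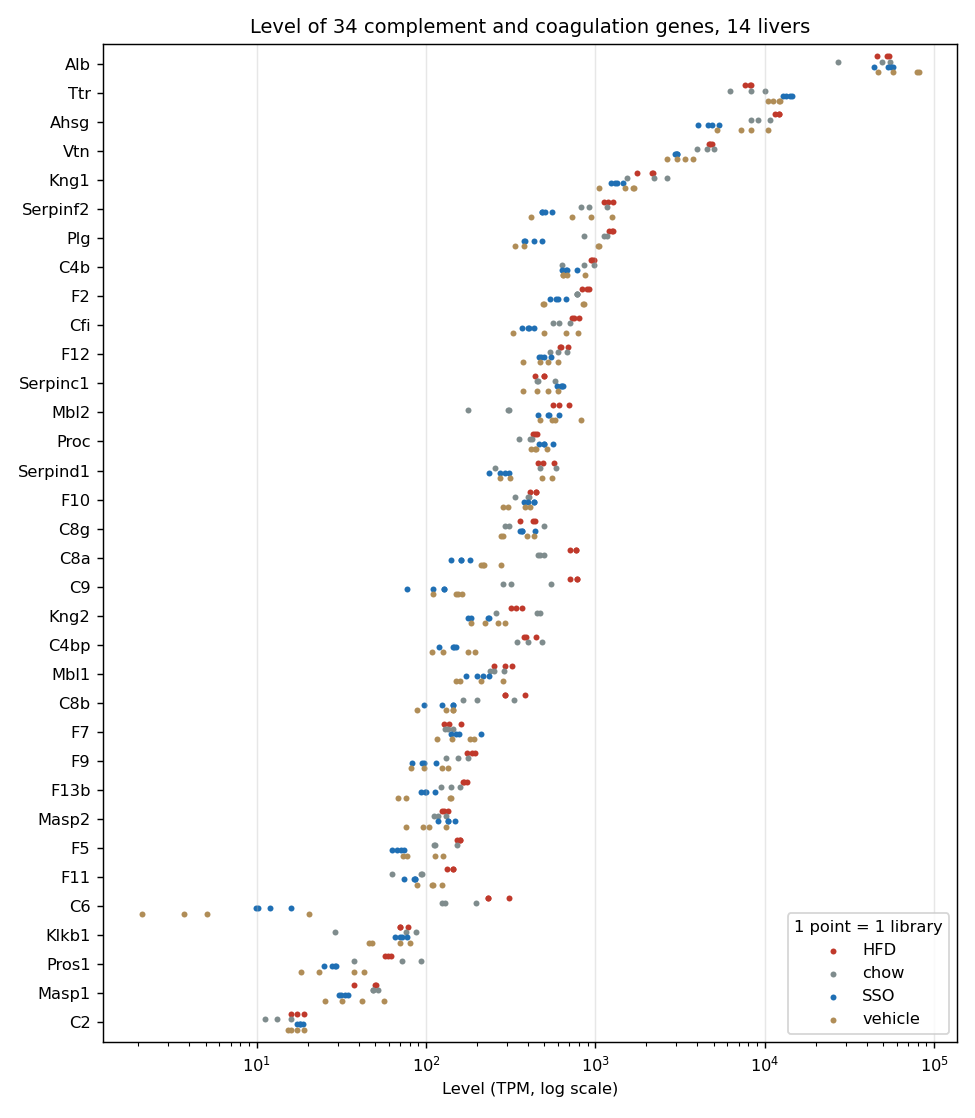
Level of each of the 34 genes in every library, in TPM on a log axis, with genes ordered by their mean and groups from top to bottom HFD, chow, SSO and vehicle within each gene. Alb lies highest, and C6 shows the widest gap between the experiments, with 258.3 TPM in HFD livers and 11.98 TPM in SSO libraries on average.

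Levels of different genes are compared per transcript length, in TPM (transcripts per M). Alb, serum albumin, averaged 50940 ± 4320 TPM in HFD livers and 43740 ± 14700 TPM in chow livers (SD, n = 3 each). It averaged 52440 ± 5890 TPM in SSO and 66050 ± 16900 TPM in vehicle libraries (SD, n = 4 each). Alb alone carried 56.3% of the summed TPM of the 34 genes in HFD livers, 55.8% in chow livers, 63.4% in SSO libraries and 67.0% in vehicle libraries. Ahsg, the fetuin-A glycoprotein, came next in the diet experiment and Ttr, the thyroxine and retinol carrier transthyretin, came next in the inhibitor experiment. Vtn, the adhesive protein vitronectin, and Kng1, a kininogen precursor of bradykinin, were the fourth and the fifth in every group. Above 1000 TPM stood 7 of the 34 genes in HFD livers, 6 in chow livers and 5 each in SSO and vehicle libraries. The lowest in the diet experiment was C2, a protease of the classical and lectin pathways, at 17.34 ± 1.52 TPM in HFD livers and 13.42 ± 2.44 TPM in chow livers (SD, n = 3 each). In the inhibitor experiment C6 was lowest, at 11.98 ± 2.83 TPM in SSO and 7.792 ± 8.4 TPM in vehicle libraries (SD, n = 4 each). Neighbours in the middle of this order overlapped between libraries, so their order there is not resolved.

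Several terminal components lay at unlike levels in the experiments, although TPM is scaled within each library and no test of levels was run across the experiments. C9, the pore-forming subunit, averaged 755.3 and 382.9 TPM in HFD and chow livers, and 110.2 and 144.1 TPM in SSO and vehicle libraries. C8a averaged 747.7 and 472.7 TPM in HFD and chow livers, and 160.5 and 230.4 TPM in SSO and vehicle libraries. C8g, the lipocalin-like chain of C8, stood at 409.8, 364.3, 383.4 and 348.3 TPM in HFD, chow, SSO and vehicle libraries. Such gaps were not limited to terminal components. C4bp averaged 406.6 and 408.0 TPM in HFD and chow livers, and 139.5 and 151.1 TPM in SSO and vehicle libraries. The experiments also differ in hours after PHx, in what the mice were given, in animals and in Xist, and these cannot be told apart.

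Between HFD and chow livers, 1 of the 34 genes was called and 33 were not. Mbl2, a mannose-binding lectin that starts the lectin pathway of complement, rose 2.11-fold. The other genes closest to a call were F11, C9, C8a and C6, each with HFD values above every chow value. No vitamin K-dependent factor, inhibitor or carrier passed the test.

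Calls were made where edgeR's quasi-likelihood test, adjusted by Benjamini-Hochberg over all 15589 genes tested, gave less than 0.05. The share called was 2.94% of the 34 genes, beside 2.32% of all genes tested, so the count is close to the background. Higher calls made up 1.6% of all genes and lower calls 0.718%, or 249 and 112 genes, against 336 and 60 with library size alone as scaling. The median log2 fold change was 0.03 over the 34 genes and -0.02 over all genes tested, with 19 of the 34 above 0 and 15 below. The 95% interval of the log2 fold change covered 0 for 29 genes, and for 30 genes it lay wholly between -1 and 1. At an unadjusted p under 0.05 in edgeR stood 5 of the 34, beside 2337 of the 15589 genes tested. DESeq2 called 4 of the 34 (Mbl2, F11, C9 and C8a, all higher), beside 5.19% of the genes it tested.

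**Figure D2:**
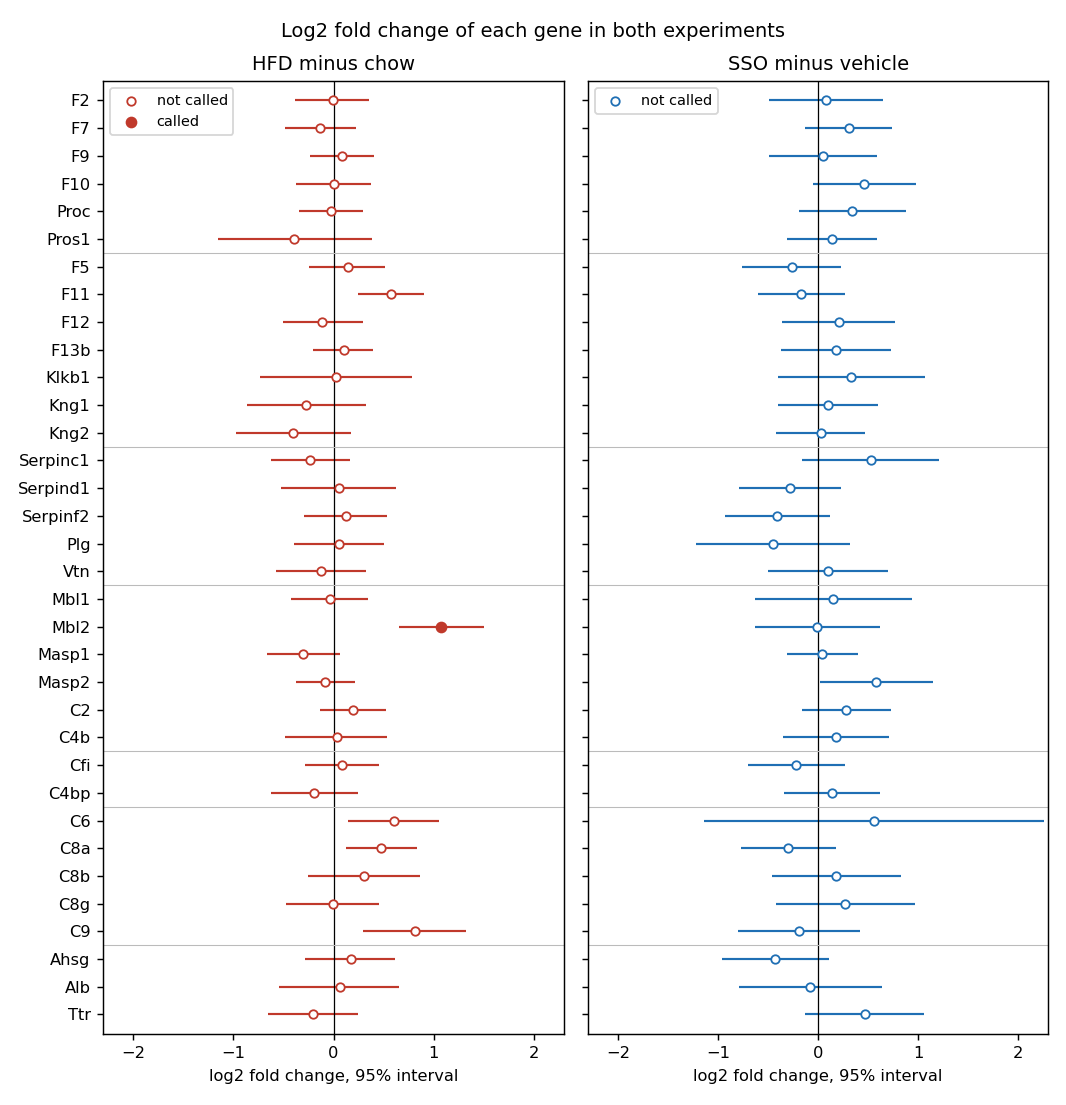
Log2 fold change of each gene with its 95% interval, HFD minus chow on the left and SSO minus vehicle on the right, grouped by role with grey lines and filled where called. Mbl2 at 1.07 in the diet experiment is the only filled point, and C6 has the widest interval, from -1.14 to 2.26, in the inhibitor experiment.

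Mbl2 lies on chromosome 19 at 30232942-30239687 of GRCm38, plus strand, in 6 exon blocks. It measured 288.8, 247.9 and 263.6 CPM in HFD livers, against 144.1, 142.3 and 93.56 CPM in chow livers. Every HFD liver exceeded every chow liver. The log2 fold change was 1.07 ± 0.19 (SE, 95% interval 0.65 to 1.5), with an adjusted p of 0.0231 in edgeR. The call was kept without chow 1 or chow 3, at an adjusted p of 0.0157 or 0.0163 in edgeR. Leaving out HFD 1, HFD 2, HFD 3 or chow 2 gave an adjusted p of 0.134, 0.0738, 0.0923 or 0.0599 in edgeR, and ended the call, with a log2 fold change between 1.01 and 1.17.

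Its paralog Mbl1, a second mannose-binding lectin of mice, did not pass the test. Mbl1 measured 174.5, 160.5 and 200.7 CPM in HFD livers, against 160.2, 169.4 and 220.3 CPM in chow livers. The groups overlapped, and the log2 fold change was -0.04 (95% interval -0.42 to 0.34). Per transcript length, Mbl2 stood at 2.39, 2.23 and 1.89 times Mbl1 in HFD livers and at 1.3, 1.21 and 0.612 times Mbl1 in chow livers. In chow 3 alone was Mbl2 the lower of the pair. In the inhibitor experiment the ratio was 2.45 to 2.64 in SSO and 2.04 to 3.92 in vehicle libraries.

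The start regions of both lectin genes are shown because 1 paralog passed the test, the other did not, and both share sequence there. The windows run from 250 bases before to 50 bases after the RefSeq start, on GRCm38.p6, plus strand, and capitals mark the longest run of bases the windows have in common. Mbl2 lies at chr19:30232678-30232977 and Mbl1 at chr14:41151206-41151505.
Mbl2: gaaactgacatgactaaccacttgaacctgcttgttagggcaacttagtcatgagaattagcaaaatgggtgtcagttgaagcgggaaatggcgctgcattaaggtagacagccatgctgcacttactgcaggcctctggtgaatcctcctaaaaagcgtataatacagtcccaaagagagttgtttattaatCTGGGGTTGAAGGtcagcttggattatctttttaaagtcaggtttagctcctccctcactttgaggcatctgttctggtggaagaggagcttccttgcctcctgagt
Mbl1: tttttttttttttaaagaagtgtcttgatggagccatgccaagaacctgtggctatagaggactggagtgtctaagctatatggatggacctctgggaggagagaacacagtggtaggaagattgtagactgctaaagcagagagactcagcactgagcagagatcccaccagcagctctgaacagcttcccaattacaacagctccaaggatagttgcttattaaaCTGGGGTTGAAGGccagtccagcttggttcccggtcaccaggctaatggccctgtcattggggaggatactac
The shared run is 13 bases long, starts at position -57 from the start of Mbl2 and at -23 from that of Mbl1, and occurs on either strand in 3 of 32851 RefSeq windows. No other gene of the set holds it. This describes letters in these windows and was searched for after the paralogs were compared.

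The proteases that sit on these lectins did not pass either. Masp1 measured 190.6, 197.9 and 145 CPM in HFD livers, against 204.7, 220.7 and 232.4 CPM in chow livers. All HFD values lay below all chow values, with a log2 fold change of -0.30 ± 0.16 (SE) and an adjusted p of 0.426 in edgeR. Masp2 measured 157.3, 170.5 and 175.5 CPM in HFD livers, against 185.3, 166.1 and 179.8 CPM in chow livers, and the groups overlapped. Of the Masp2 exon length, 54.9% overlaps Tardbp on the other strand, and strand use in counting is not given in the sources used here, so its count is uncertain. C4b, the classical pathway substrate, had a log2 fold change of 0.03 (95% interval -0.48 to 0.53), and 34.6% of its 50-base windows also occur in other genes, most in C4a. C2 had a log2 fold change of 0.19 (95% interval -0.13 to 0.52), with 38.7% of its windows also in the overlapping model Gm20547.

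Of the terminal components, 4 of 5 had a log2 fold change above 0 and none was called by edgeR. C9 measured 763.4, 800.4 and 716.7 CPM in HFD livers, against 597.2, 350.1 and 353.9 CPM in chow livers. The HFD livers lay above all chow livers, and chow 1 stood apart from chow 2 and chow 3. Its log2 fold change was 0.81 ± 0.23 (SE, 95% interval 0.29 to 1.32), with an adjusted p of 0.119 in edgeR and 0.00832 in DESeq2. C6, which binds the C5b fragment, measured 422.4, 334.4 and 325.2 CPM in HFD livers, against 300.7, 190.2 and 224.4 CPM in chow livers. Its groups did not overlap either, with a log2 fold change of 0.60 ± 0.20 (SE) and an adjusted p of 0.202 in edgeR. Without chow 1, C9 and C6 were called beside Mbl2, at log2 fold changes of 1.12 and 0.80 and adjusted p of 0.00522 and 0.0384 in edgeR. Without that library 681 of all genes were called, against 361 with it, so these calls of C9 and C6 rest on leaving out 1 library of 3.

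C8 is built from 3 chains encoded by separate genes, of which edgeR called none. C8a measured 1062, 1044 and 1105 CPM in HFD livers, against 768.3, 711.2 and 831.8 CPM in chow livers, without overlap. The log2 fold change was 0.47 ± 0.16 (SE), with an adjusted p of 0.187 in edgeR and 0.032 in DESeq2. C8b measured 373.5, 299.5 and 294.4 CPM in HFD livers, against 357.9, 179.6 and 247.4 CPM in chow livers, and its groups overlapped. C8g measured 251.7, 258.1 and 212.8 CPM in HFD livers, against 315.2, 187.2 and 224.1 CPM in chow livers, with a log2 fold change of -0.01 (95% interval -0.47 to 0.45). C8a and C8b lie 11.1 kb apart on chromosome 4 on opposite strands, and C8g lies on chromosome 2. Per transcript length, C8a stood at 1.99 to 2.63 times C8b in HFD livers and 1.5 to 2.77 times in chow livers. The difference in response between the chains was not tested.

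The windows of C9 and C8a are shown as the terminal genes with the smallest p, beside that of Alb as the highest gene of the set. Capitals mark matches to the C/EBP motif TTGCNNAA (C9, and Alb at the more upstream place), the STAT motif TTCNNNGAA (C8a) and the HNF1 motif GTTAATNAT (Alb). All are GRCm38.p6 and read along the gene's strand: C9 at chr15:6445096-6445395 plus, C8a at chr4:104876349-104876648 minus and Alb at chr5:90460620-90460919 plus.
C9: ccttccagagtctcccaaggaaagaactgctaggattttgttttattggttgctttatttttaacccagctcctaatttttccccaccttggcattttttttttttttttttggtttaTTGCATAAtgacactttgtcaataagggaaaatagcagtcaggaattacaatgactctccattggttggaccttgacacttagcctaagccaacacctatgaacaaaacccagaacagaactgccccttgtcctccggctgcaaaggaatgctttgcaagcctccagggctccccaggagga
C8a: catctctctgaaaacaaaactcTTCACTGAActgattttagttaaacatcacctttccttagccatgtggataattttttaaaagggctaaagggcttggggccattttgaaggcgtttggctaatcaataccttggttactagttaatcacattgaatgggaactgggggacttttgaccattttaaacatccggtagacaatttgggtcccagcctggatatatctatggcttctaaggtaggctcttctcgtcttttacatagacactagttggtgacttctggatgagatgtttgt
Alb: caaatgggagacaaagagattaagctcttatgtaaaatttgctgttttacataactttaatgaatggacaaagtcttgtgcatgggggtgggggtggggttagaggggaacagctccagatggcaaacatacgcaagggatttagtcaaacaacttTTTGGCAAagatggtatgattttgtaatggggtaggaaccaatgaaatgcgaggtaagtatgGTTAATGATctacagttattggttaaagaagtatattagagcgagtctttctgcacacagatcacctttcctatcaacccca
Of the 34 genes, 26 had a RefSeq window, and 8 (C2, C4b, Cfi, Kng1, Masp1, Plg, Proc and Ttr) had none. On either strand, the HNF1 motif was found in 3 of the 26 (Alb, C4bp and F13b), beside 0.801% of all 32851 windows. The C/EBP motif was found in 8 (Ahsg, Alb, C9, F11, F9, Klkb1, Kng2 and Serpinc1), beside 10.8% of all windows. The STAT motif was found in 5 (C8a, F9, Masp2, Pros1 and Vtn), beside 8.3% of all windows. The HNF4 motif CAAAGTCCA was found in 0 of the 26, beside 0.475% of all windows. Only this exact string was searched, so the 0 does not show that HNF4 sites are absent. None of these letters occur in the windows of Mbl2, Mbl1 or C6. The same holds for C8b, C8g, F2, F5, F7, F10, F12, Serpind1 and Serpinf2.

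**Figure D3:**
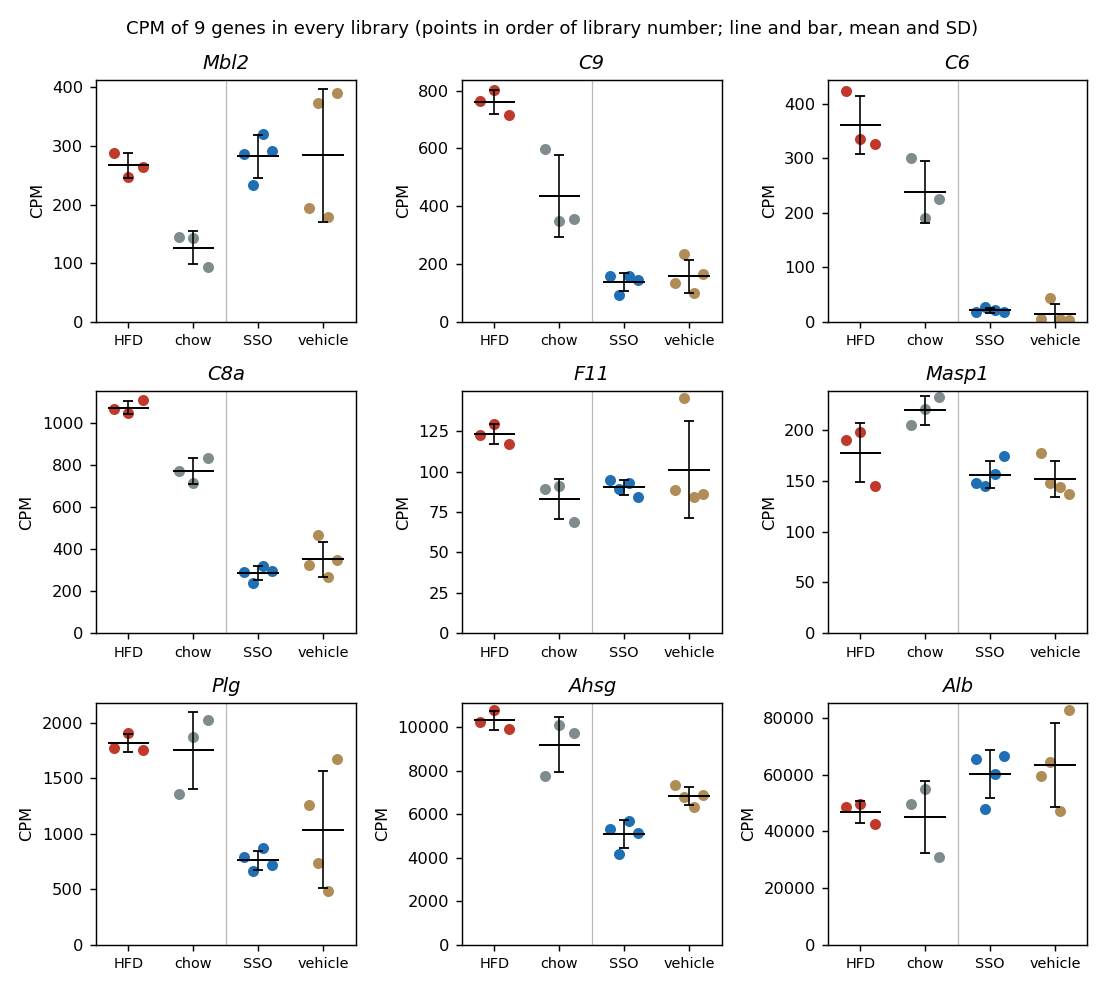
CPM of 9 genes in each library, in the order HFD, chow, SSO and vehicle, with 1 point per library, a line at the mean and a bar for the SD. Mbl2, C9, C6, C8a and F11 have all HFD points above all chow points, and vehicle 2 stands apart for C6 at 42.71 CPM and for F11 at 145.9 CPM.

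Within coagulation, F11, a contact-pathway protease that activates factor IX, came closest to a call. It measured 122.8, 129.8 and 117.3 CPM in HFD livers, against 89.48, 91.22 and 68.88 CPM in chow livers. The groups did not overlap, with a log2 fold change of 0.57 ± 0.14 (SE), an adjusted p of 0.0911 in edgeR and 0.0311 in DESeq2. Klkb1, prekallikrein, lies 4.7 kb from F11 on chromosome 8 on the same strand. It measured 140.7, 165.8 and 144.6 CPM in HFD livers, against 170.9, 197.9 and 74.56 CPM in chow livers. The chow range enclosed the HFD values, with a log2 fold change of 0.02 (95% interval -0.73 to 0.78), and 42.7% of the windows of Klkb1 also occur in the readthrough model Gm45753.

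The remaining contact and cofactor genes did not pass. F5, the cofactor of factor X, had a log2 fold change of 0.14, F12, which starts the contact pathway, -0.11, and F13b, the carrier chain of the fibrin crosslinker, 0.10. Kng1 measured 2200, 2841 and 2801 CPM in HFD livers, against 2135, 3095 and 4200 CPM in chow livers. Its neighbour Kng2, 28.4 kb away, measured 330.2, 408.5 and 367.3 CPM in HFD livers, against 302.7, 532.3 and 624.7 CPM in chow livers. In both genes chow 1 lay below every HFD liver and chow 3 above. About 17.2% of the windows of Kng1 and 19.4% of those of Kng2 occur in the other, so these counts are uncertain.

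None of the 6 vitamin K-dependent genes was called, and 5 of them had a log2 fold change between -0.13 and 0.08. F2 (prothrombin) measured 1617, 1544 and 1610 CPM in HFD livers, against 1519, 1546 and 1753 CPM in chow livers. Proc, the anticoagulant protein C, measured 414.6, 427.2 and 442.9 CPM in HFD livers, against 449.5, 435 and 424.4 CPM in chow livers. Both pairs of groups overlapped, with log2 fold changes of -0.01 (95% interval -0.38 to 0.35) and -0.03 (95% interval -0.34 to 0.29). F7, F9 and F10 had log2 fold changes of -0.13, 0.08 and 0.00. Pros1, the cofactor protein S, spread more widely, with 89.79, 102.4 and 95.97 CPM in HFD livers and 65.74, 125.8 and 185.1 CPM in chow livers. Its log2 fold change of -0.39 had an interval of -1.15 to 0.38, so a change of either sign is not resolved.

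Among inhibitors and fibrinolysis, Serpinc1 (antithrombin) had a log2 fold change of -0.23, Serpind1 (heparin cofactor II) 0.05 and Serpinf2 (the plasmin inhibitor) 0.12. Plg, the precursor of plasmin, measured 1778, 1908 and 1760 CPM in HFD livers, against 1361, 1873 and 2024 CPM in chow livers. The groups overlapped, with an interval of -0.39 to 0.50. Exons of Serpinc1 (34.4%) and Plg (11.3%) overlap genes on the other strand, Zbtb37 and Slc22a3, so their counts are uncertain. Vtn had a log2 fold change of -0.12. The complement regulators Cfi, which cleaves C3b and C4b, and C4bp, its cofactor, had log2 fold changes of 0.08 and -0.19. Of the carriers, Ahsg had a log2 fold change of 0.17, Alb 0.06 and Ttr -0.20.

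Chow livers differed among themselves more than HFD livers did. The SD of log2 CPM was wider in chow than in HFD livers for 30 of the 34 genes, with a median of 0.09 in HFD and 0.26 in chow. The median coefficient of variation of the 34 genes was 6.07% in HFD and 17.4% in chow livers, beside 9.06% in HFD and 14.7% in chow over the 8094 genes with a mean of at least 10 CPM. Klkb1 had the highest SD in chow at 0.76. Alb measured 48490, 49810 and 42590 CPM in HFD livers, against 49610, 55070 and 30840 CPM in chow livers, and chow 3 was the lowest.

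Groups without overlap in CPM were found for 6 of the 34 genes, 5 higher and 1 lower in HFD, beside 21.9% of all genes tested, a larger share than that of the set. Proliferation markers moved with diet: 3 of 4 (Mki67, Ccnb1 and Cdk1) were called higher, and the 4 summed to 280, 230 and 365 CPM in HFD livers against 50.5, 26.1 and 21.8 CPM in chow livers. Of the 9 hepatocyte markers outside the set, edgeR called 0 and DESeq2 4, with 5 at an unadjusted p under 0.05. Their median log2 fold change was -0.23, beside -0.02 over all genes tested. Of the 7 Kupffer cell markers both tools called 0, with 0 at an unadjusted p under 0.05, and they summed to 177 to 320 CPM in HFD and 102 to 237 CPM in chow livers. Among lists for monocytes and neutrophils, endothelium, stellate cells, cholangiocytes, erythroid cells, platelets and lymphocytes, edgeR called 0, with 1, 0, 2, 2, 4, 0 and 0 markers at an unadjusted p under 0.05 and as many called by DESeq2. Sums did not overlap for stellate cells, at 282 to 324 CPM in HFD and 389 to 444 CPM in chow livers, or for erythroid cells, at 181 to 291 CPM in HFD and 297 to 539 CPM in chow livers. They did not overlap for cholangiocytes either, at 103 to 112 CPM in HFD and 56.6 to 88 CPM in chow livers. The median log2 fold change of these 5 cholangiocyte markers was -0.31, so the higher sum in HFD does not describe most of them. The part of proliferation and of other cells in the values of the 34 genes was not tested. In such bulk tissue, fewer cells of a type and less RNA per cell cannot be told apart.

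Other genes of the cascades were also counted by list, beside 2337 of all 15589 genes tested with an unadjusted p under 0.05 in edgeR. The share of all genes called was 2.32% in edgeR and 5.19% in DESeq2, each of the genes it tested. Among 24 tested further complement genes edgeR and DESeq2 called 0, with 2 at an unadjusted p under 0.05 and a median log2 fold change of -0.10. Among 28 further coagulation and fibrinolysis genes edgeR called 0 and DESeq2 2 (both lower). An unadjusted p under 0.05 was found for 6 of these 28, with a median of -0.34. Without chow 1 edgeR called 3 of these 28, all lower, and with no filter on low counts 1, also lower. Over all genes it called 681 without chow 1 and 672 with no filter. Of 5 genes of the vitamin K cycle both tools called 0, with 0 at an unadjusted p under 0.05 and a median of -0.20. Of 14 liver transcription factors known to act on such genes, 2 were called and both fell, while 1 of the 14 was called with library size alone as scaling, with replicate number as a block, or without HFD 1, HFD 2, HFD 3 or chow 2. Nr1h4, the bile acid receptor FXR, averaged 77.93 ± 9.05 CPM in HFD livers and 125.1 ± 7.42 CPM in chow livers (SD, n = 3 each), with a log2 fold change of -0.68 and an adjusted p of 0.0378 in edgeR. Dbp, a clock-controlled activator of liver genes, averaged 2.174 ± 0.379 CPM in HFD livers and 13.52 ± 5.44 CPM in chow livers (SD, n = 3 each), with a log2 fold change of -2.63 and an adjusted p of 0.00576 in edgeR. Dbp and Sphk2 overlap on opposite strands, so the count of Dbp is uncertain.

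**Figure D4:**
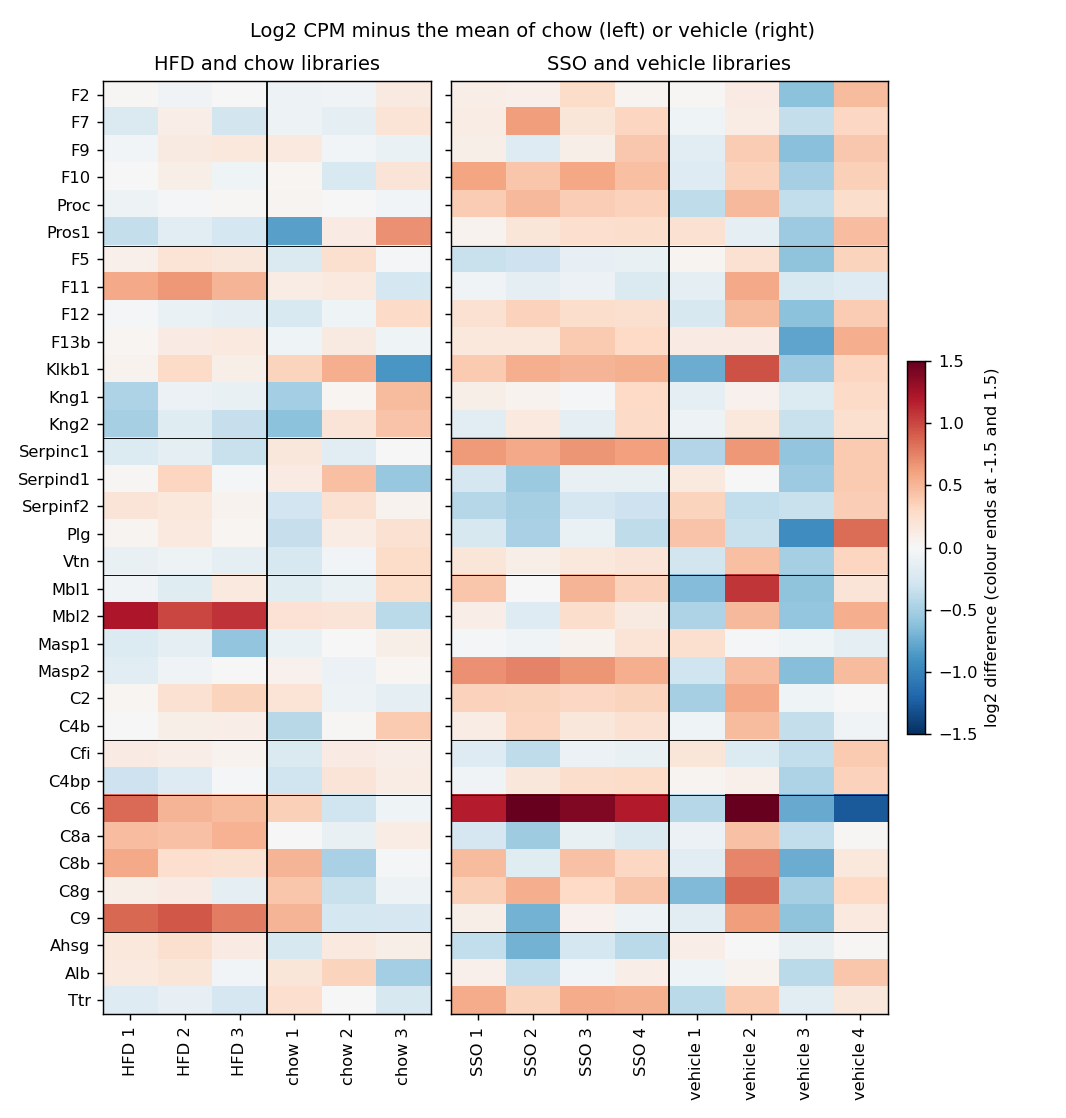
Log2 CPM of each gene in each library minus the mean of the chow libraries (left) or of the vehicle libraries (right), with red above and blue below on the colour scale shown. Mbl2 is red in each HFD column, vehicle 3 is blue in most rows, and vehicle 2 is red for Klkb1, Mbl1, C6 and C8g.

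Between SSO and vehicle libraries, none of the 34 genes was called. For 3 genes, Masp2, F10 and Ahsg, the groups did not overlap, beside 11.8% of all genes tested. Masp2, the protease that carries the lectin signal onward, came closest to a call, with the Tardbp overlap of its exons given above. C6 spread most widely over the vehicle libraries.

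The test covered 15788 genes, of which 0.45% were called, 0.317% higher and 0.133% lower, or 50 and 21 genes. The larger side turned with the setting: 426 higher and 710 lower with DESeq2, 1138 and 1508 without vehicle 2, and 131 and 233 without vehicle 4. With library size alone as scaling the split was 33 higher and 4 lower. Of the 34 genes, 1 had an unadjusted p under 0.05 in edgeR, beside 3229 of the 15788 genes tested. DESeq2 called 0 of the 34 as well, beside 6.35% of the genes it tested. The median log2 fold change was 0.12 over the 34 genes, with 23 above 0 and 11 below, beside -0.04 over all genes tested. With library size alone the median of the 34 genes was -0.01, beside -0.2 over all genes, and without vehicle 3 it was -0.01. Without vehicle 1 and vehicle 3 it was -0.18, and 0 were still called. The 95% interval covered 0 for 33 genes and lay wholly between -1 and 1 for 28. For Klkb1, Serpinc1, Plg, Masp2, C6 and Ttr it reached beyond, so a change of 2-fold was not resolved for these 6 genes.

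Masp2 measured 220.2, 228.5, 215.6 and 198.8 CPM in SSO libraries, against 110.9, 188.4, 87.61 and 189.3 CPM in vehicle libraries. Every SSO value lay above every vehicle value, and vehicle 1 and 3 lay lowest. The log2 fold change was 0.58 ± 0.26 (SE, 95% interval 0.02 to 1.15), with an adjusted p of 0.231 in edgeR. F10, the protease that forms thrombin, measured 580.5, 511.8, 573.5 and 525.2 CPM in SSO libraries, against 335.3, 490.6, 271.5 and 491.5 CPM in vehicle libraries. Its log2 fold change was 0.46 ± 0.23 (SE), with an adjusted p of 0.289 in edgeR. Ahsg measured 5310, 4170, 5698 and 5152 CPM in SSO libraries, against 7337, 6782, 6345 and 6898 CPM in vehicle libraries. All SSO values lay below all vehicle values, with a log2 fold change of -0.43 ± 0.24 (SE) and an adjusted p of 0.338 in edgeR. These 3 genes were those without overlap among the 34, beside 11.8% of all genes tested.

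C6 measured 17.76, 26.61, 20.54 and 17.88 CPM in SSO libraries, against 5.813, 42.71, 4.627 and 3.256 CPM in vehicle libraries. In 3 vehicle libraries it lay below every SSO library, and in vehicle 2 above. The log2 fold change was 0.56 ± 0.75 (SE), with an adjusted p of 0.698 in edgeR. Without vehicle 2 it was 2.18, with an adjusted p of 0.000993, and C2 was called too, at 0.50 with an adjusted p of 0.0479, both in edgeR. Without that library 2646 of all genes were called, against 71 with it, so these calls rest on leaving out 1 library of 4.

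Mbl2, called in the diet experiment, measured 286.1, 232.7, 320.5 and 291.8 CPM in SSO libraries, against 193.4, 374.3, 179 and 390.6 CPM in vehicle libraries. The vehicle libraries fell into a low and a high pair around the SSO values. The log2 fold change was -0.01 (95% interval -0.63 to 0.62). C9 and C8a had log2 fold changes of -0.19 and -0.30, with intervals of -0.80 to 0.42 and -0.77 to 0.18. F11 measured 94.8, 89.01, 92.77 and 84.54 CPM in SSO libraries, against 88.78, 145.9, 84.4 and 86.17 CPM in vehicle libraries, where vehicle 2 alone stood high.

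The 6 vitamin K-dependent genes had log2 fold changes between 0.05 and 0.46, and none passed. With library size alone as scaling, F2, F9 and Pros1 were below 0, at -0.05, -0.06 and -0.01. F2 and F9 stood at -0.08 and -0.11 without vehicle 3 and at -0.18 and -0.28 without vehicle 1 and vehicle 3. F9 was also below 0 without SSO 4 or without vehicle 1, and Pros1 without vehicle 3. Proc measured 604.5, 648, 599.2 and 587.5 CPM in SSO libraries, against 356.2, 649, 360.6 and 555.7 CPM in vehicle libraries. Serpinc1 measured 2639, 2522, 2675 and 2596 CPM in SSO libraries, against 1245, 2651, 1122 and 2230 CPM in vehicle libraries. For both genes vehicle 1 and 3 were low, and vehicle 2 lay near the SSO values. Plg showed another order, with 787.5, 667.4, 870.3 and 719.1 CPM in SSO libraries and 1257, 739.5, 489.4 and 1671 CPM in vehicle libraries. Serpinf2 and Serpind1 had log2 fold changes of -0.41 and -0.28, with intervals of -0.93 to 0.12 and -0.79 to 0.23. Ttr measured 8265, 7064, 8253 and 8093 CPM in SSO libraries, against 4230, 7341, 5023 and 6332 CPM in vehicle libraries. Alb had a log2 fold change of -0.08 (95% interval -0.79 to 0.64). In the other roles nothing passed either, with log2 fold changes from -0.26 to 0.33 over the 7 cofactor and contact genes and from -0.30 to 0.56 over the 5 terminal components. Klkb1, at the upper end of the contact genes, measured 169.3, 188.3, 183.6 and 186.3 CPM in SSO libraries, against 77.06, 250.6, 88.21 and 161.5 CPM in vehicle libraries. Mbl1 measured 168.2, 127, 178.9 and 160.5 CPM in SSO libraries, against 80.19, 264.3, 82.82 and 143.8 CPM in vehicle libraries. In both genes vehicle 2 was the highest of all 8 libraries and vehicle 1 and 3 the lowest. The regulators Cfi and C4bp had log2 fold changes of -0.22 and 0.14.

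The spread was wider in vehicle than in SSO libraries for 33 of the 34 genes, with a median SD of log2 CPM of 0.12 in SSO and 0.44 in vehicle. The median coefficient of variation of the set was 8.36% in SSO and 29.4% in vehicle libraries, beside 11.9% in SSO and 23.4% in vehicle over 8428 genes with a mean of at least 10 CPM. Vehicle 3 was the lowest of its group in 25 of the 34 genes, vehicle 4 was the highest in 17 and vehicle 2 in 15. C6 had the widest spread, with an SD of 1.67 in vehicle libraries. C2 had the narrowest, with 0.01 in SSO libraries.

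Marker sums also differed between the vehicle libraries, in an order that was not the same for every list. The 7 markers of recruited monocytes and neutrophils summed to 14.8 to 29.4 CPM in SSO libraries and to 290, 31.9, 341 and 54.3 CPM in vehicle 1 to 4. Kupffer cell markers summed to 193 to 334 CPM in SSO libraries and to 498, 116, 383 and 111 CPM in vehicle 1 to 4. The 9 hepatocyte markers outside the set summed to 26000 to 27000 CPM in SSO libraries and to 18000, 32600, 18500 and 25300 CPM in vehicle 1 to 4. In edgeR none of these 3 lists held a called gene, with 3, 0 and 0 markers at an unadjusted p under 0.05, and DESeq2 called 3, 0 and 0. In vehicle 2, 1 monocyte and neutrophil marker stood at 0. Proliferation markers summed to 26.1 to 35.4 CPM in SSO libraries and to 83.5, 32.4, 108 and 86.5 CPM in vehicle 1 to 4, and Cdk1 was called lower. In the lists for endothelium, stellate cells, cholangiocytes, erythroid cells, platelets and lymphocytes, edgeR called 0, with 0, 0, 2, 2, 1 and 0 markers at an unadjusted p under 0.05, and DESeq2 called 0, 0, 1, 1, 1 and 0. The part of these cells and of the mitochondrial share in the levels of the 34 genes was not tested.

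Over all 15788 genes tested, 3229 had an unadjusted p under 0.05 in edgeR. The share of all genes called was 0.45% in edgeR and 6.35% in DESeq2, each of the genes it tested. Of 23 tested further complement genes edgeR called 0 and DESeq2 4 (2 higher, 2 lower). An unadjusted p under 0.05 was found for 6 of these 23, with a median log2 fold change of 0.08. Of 25 further coagulation and fibrinolysis genes edgeR called 0 and DESeq2 7 (1 higher, 6 lower). An unadjusted p under 0.05 was found for 10 of these 25, with a median of -0.22. Of 5 vitamin K cycle genes both tools called 0, with 0 at an unadjusted p under 0.05 and a median of 0.24. Of 14 liver transcription factors edgeR called 0 and DESeq2 1 (lower), with 4 at an unadjusted p under 0.05 and a median of 0.28. The counts of 0 for the complement, coagulation and transcription factor lists changed when a vehicle library was left out. Without vehicle 2 edgeR called 4 (2 higher, 2 lower), 8 (2 higher, 6 lower) and 4 (3 higher, 1 lower). Without vehicle 4 it called 1 in each list, all lower. Over all genes it called 2646 without vehicle 2 and 364 without vehicle 4. With no filter on low counts it called 1 transcription factor, which was lower. Nr1h4 averaged 231.3 ± 17.9 CPM in SSO and 146.6 ± 46.3 CPM in vehicle libraries (SD, n = 4 each), with a log2 fold change of 0.66 and an adjusted p of 0.162 in edgeR.

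Whether the effects of SSO and of HFD differed was tested in 1 fit over all 14 libraries, with no control shared between the experiments. None of the 34 genes was called by edgeR or DESeq2, beside 3.63% of 17281 genes called by edgeR, and 4 had an unadjusted p under 0.05 in edgeR. The smallest adjusted p was that of Mbl2, at 0.132 in edgeR, with a difference in log2 fold change (SSO effect minus HFD effect) of -1.07 ± 0.38 (SE). F11 followed with -0.72 ± 0.26 (SE) and an adjusted p of 0.142 in edgeR. C8a and C9 had differences of -0.76 ± 0.29 and -0.99 ± 0.40 (SE), with adjusted p of 0.152 and 0.179 in edgeR. With library size alone as scaling, Mbl2, F11 and C8a were called for this difference, at -1.32, -0.99 and -1.05. A call for Mbl2 in the diet experiment and none in the inhibitor experiment is therefore not shown to be a difference between them under TMM scaling.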

How the data were processed

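Poly(A)-selected RNA from whole liver was sequenced, per the labels' protocols. The values are whole-number read counts per Ensembl gene as the authors deposited them, and they are not normalized. Tools named in the submitters' processing notes are featureCounts 2.0.2, HISAT2 2.2.1, Trim Galore 0.6.1 and DESeq2, on GRCm38, with no order or settings. How counting treated strand and multi-mapped reads, and its annotation release, is not given in the sources used here. Of 55487 identifiers per table, 55141 had a GENCODE M21 symbol, and 213 of them shared one. The labels hold 1 record per group, so columns were assigned by name. The control columns carry a letter C and a number, read as chow or vehicle from the experiment of their table. Sorted macrophages and single cells were not analysed here.

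Each table was fitted alone with edgeR 4.0.16 in R 4.3.3 (quasi-likelihood test, robust spread, TMM scaling, filterByExpr). P-values were adjusted by Benjamini-Hochberg over all genes tested, with calls at 0.05. The p-values measure the spread between libraries. CPM uses TMM-scaled library sizes, and TPM uses the union of exons. Shared sequence was measured in windows of 50 bases. A count of 0 allows 3 counts, or 0.077 to 0.136 CPM, which covers counting error only. Libraries of a group differed beyond sampling noise, so each counted as 1 sample. The members and lists were chosen with earlier results of these data known. All 34 members could be named, and up to 4 called genes of each list by smallest p. Nr1h4 in the inhibitor experiment was named after its value was seen. Alternatives were RLE factors, library size alone, TMM without the members or without mitochondrial genes, no filter, DESeq2 1.42.0, each library left out and a replicate block. The procedure was tested on simulated data.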

Additional observations from a re-analysis of the deposited data

Results flagged for a closer look

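Of 68 lists of 4 libraries (34 genes in SSO and in vehicle), 3 held a library far from the other 3, and chance gives about 5% of such lists. F11 measured 145.9 CPM in vehicle 2 and 84.4 to 88.78 CPM in the other vehicle libraries. C6 measured 42.71 CPM in vehicle 2 and 3.256 to 5.813 CPM in the other vehicle libraries. Ttr measured 7064 CPM in SSO 2 and 8093 to 8265 CPM in the other SSO libraries. Groups of 3, as in the diet experiment, were not examined this way.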

How the results depend on the processing

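Between HFD and chow, 1 of the 34 genes was called, against 3 (F11, Mbl2 and C9) with no filter on low counts and 4 (F11, Mbl2, C8a and C9) with DESeq2, and between 0 and 3 with 1 library left out. Library size alone moved the median log2 fold change of the 34 genes to 0.17 and that of all genes to 0.13, from 0.03 and -0.02. Between SSO and vehicle, 0 were called, and between 0 and 2 with 1 library left out. The median there was 0.12, and -0.01 with library size alone or without vehicle 3. Without vehicle 1 and vehicle 3 it was -0.18, a choice made after seeing the data. For the difference between both effects, 0 were called, against 3 (F11, Mbl2 and C8a) with library size alone, and between 0 and 1 with 1 library left out, where C6 was called without vehicle 2. Over all genes, the 361 calls between HFD and chow became 672 with no filter, 859 with DESeq2 and 86 to 681 with 1 library left out. The 71 calls between SSO and vehicle became 205 with no filter, 1136 with DESeq2, 37 with library size alone and 0 to 2646 with 1 library left out. Replicate numbers did not pair the libraries (correlations of -0.12 to 0.02 and -0.10 to 0.05). With the replicate block, 1 of the 34 was called between HFD and chow (Mbl2, log2 fold change 1.1, adjusted p 0.0493 in edgeR), with 206 calls over all genes and 1 of the 14 transcription factors, against 2 without it, and 0 between SSO and vehicle, with 47. The causes of these shifts were not tested.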
